A study of Mus musculus with 6 samples.

Results

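The 4 angiotensin system genes described here are Agtr2, Agtr1a, Agt and Ace. They were picked by name, with their P3 and adult levels already known, and every probe set that the array annotation gives to one of them alone was taken. This gave 5 probe sets of the 45101 on the array. Agtr2, Agtr1a and Agt had 1 probe set each and Ace had 2. RNA came from the cochlear sensory epithelia (CSE) of untreated Swiss Webster mice, the tissue that carries the auditory hair cells and their supporting cells. One group was taken at postnatal day 3 (P3) and the other from adults aged 8 weeks. Each stage had 3 pools, each of 40 epithelia from 20 mice of the same age, and each pool was measured on 1 Affymetrix array. The P3 pieces still held the ridges of tall cells beside the hair cells, which have receded in the adult, where the inner sulcus and interdental cells were included, so a pool is a mixture of cell types whose makeup can differ between the stages.

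The renin-angiotensin system is a chain of secreted peptides best known for the control of blood pressure and salt balance. Renin cuts angiotensin I from its precursor angiotensinogen, the product of Agt, and angiotensin-converting enzyme, the product of Ace, trims it to angiotensin II. Angiotensin II acts on 2 kinds of G protein-coupled receptor. The type 1 receptor (AT1, Agtr1a in rodents) mediates vasoconstriction and aldosterone release, while the type 2 receptor (AT2, Agtr2) is abundant in many fetal tissues and becomes scarce after birth in most of them.

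The core promoters of Agtr2, Agt and Ace are printed first, because the annotation places the starts of these genes there and the results below turn on Agtr2 and Agt. The sequences are from RefSeq (GRCm38.p6), run from 250 bases before to 50 bases after the start, and read 5′ to 3′ on the strand of the gene. Capitals mark the letters TATAA, the core of a TATA box, searched on the strand of the gene from 40 to 20 bases before the start.
Agtr2 promoter, chrX:21484374-21484673, plus strand: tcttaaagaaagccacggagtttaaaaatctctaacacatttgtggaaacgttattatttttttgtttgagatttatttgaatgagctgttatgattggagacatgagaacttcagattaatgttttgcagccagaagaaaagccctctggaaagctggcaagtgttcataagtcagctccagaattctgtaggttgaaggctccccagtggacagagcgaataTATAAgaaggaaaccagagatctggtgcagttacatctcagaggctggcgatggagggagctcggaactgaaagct
Agt promoter, chr8:124569657-124569956, minus strand: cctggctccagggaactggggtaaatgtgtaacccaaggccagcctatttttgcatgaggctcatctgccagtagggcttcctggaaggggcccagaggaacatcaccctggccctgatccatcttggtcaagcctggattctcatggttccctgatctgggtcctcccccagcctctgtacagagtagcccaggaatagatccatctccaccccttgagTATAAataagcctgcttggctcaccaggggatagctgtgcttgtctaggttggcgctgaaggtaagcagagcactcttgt
Ace promoter, chr11:105967698-105967997, plus strand: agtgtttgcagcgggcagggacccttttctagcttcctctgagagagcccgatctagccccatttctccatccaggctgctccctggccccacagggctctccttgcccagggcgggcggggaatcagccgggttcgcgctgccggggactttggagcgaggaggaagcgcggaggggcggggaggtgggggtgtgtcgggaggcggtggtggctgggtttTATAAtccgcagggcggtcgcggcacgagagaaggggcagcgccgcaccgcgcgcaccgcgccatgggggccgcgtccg
TATAA began 26 bases before the start in Agtr2, 30 in Agt and 29 in Ace. Of all 32851 promoter windows, 3.31% held these letters in the same stretch, and 24.9% held TATAA or its reverse complement TTATA anywhere in their 300 bases. In Ace the letters TTATA overlapped the marked TATAA. The Agtr2 window had a GC content of 41.3% and 5 CpG sites, the Agt window 54.7% and 1, and the Ace window 69.7% and 29. A second Ace start listed in RefSeq had no TATAA or TTATA in its window.

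The deposited values are linear MAS5.0 intensities, called signals here. As background of each array served the 90th percentile over 83 probe sets of bitter taste, vomeronasal and olfactory receptors, which were taken as not expressed in the cochlea. On P3 replicates 1, 2 and 3 this level was 34.5, 9.16 and 6.29. The adult levels were 16.3, 9.05 and 8.71. P3 replicate 1 stood apart from the other arrays. Its 3′ to 5′ signal ratio for the Gapdh control was 82.0, against 0.707 to 2.07 on the other arrays, and 47.4% of its probe sets were above background, against 58.6% to 68.1% elsewhere. Of 12 hair cell markers, 2 were not analysed here and 8 were above background on at least 3 arrays, among them Pvalb, Myo6, Otof and Myo7a, while Slc26a5, the motor protein of outer hair cells, was above background on 0 of the 6 arrays. All 12 supporting cell markers passed. The number of arrays limits the precision.

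Of the 5 angiotensin probe sets, 4 were above background on at least 3 arrays and entered the fit, 1 for each gene. For these 4 genes the comparison of the stages is given without a test, since the genes were chosen with it known. Log2 fold changes are adult minus P3, and the SE is the moderated standard error of a limma fit over 29036 probe sets. In bulk tissue, fewer cells that express a gene and less of its RNA per cell cannot be told apart.

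Agtr2, the AT2 receptor, was measured by 1415832_at. Its signal at P3 was 67.7, 96.4 and 94.9 on replicates 1, 2 and 3. In the adult it was 0.840, 1.16 and 0.372. The gene was thus above background on all 3 P3 arrays and on 0 adult arrays, and the stages did not overlap. The mean signal was 86.3 ± 16.2 at P3 and 0.792 ± 0.398 in the adult (SD, n = 3 arrays). The log2 fold change was -6.90 (SE 0.80). Since the adult signals lay far below background, this value rests on signals that cannot be ordered. With the adult signals raised to background and the P3 signals taken as measured, Agtr2 was at least 7.84-fold higher at P3. That bound ran from 7.02 to 9.60 with any 1 array left out. With a floor at background the log2 fold change was -2.97, with the mean background of 14.0 added to each signal it was -2.75, and with array quality weights -7.77.

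Relative to the background of its own array, the Agtr2 signal was 1.96, 10.5 and 15.1 times that level on P3 replicates 1, 2 and 3. Replicate 1 had the smallest ratio and the highest background of the P3 arrays. In the adult these ratios were 0.0517, 0.129 and 0.0427. By rank, Agtr2 stood at percentiles of 68.6, 74.0 and 72.9 among all probe sets of the P3 arrays, and at 4.91, 10.9 and 1.94 in the adult. All 3 P3 arrays therefore placed Agtr2 in the upper part of the probe sets, including replicate 1, and all 3 adult arrays placed it near the bottom.

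**Figure D1:**
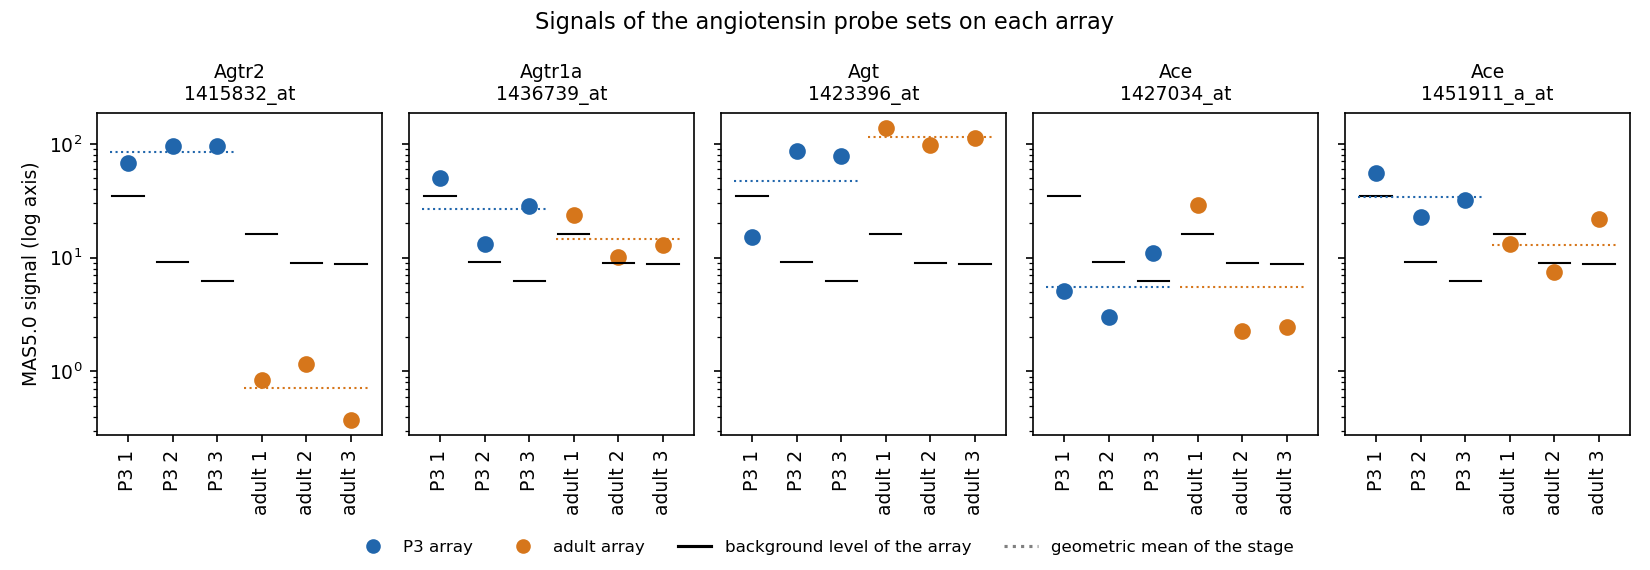
MAS5.0 signal (log axis) of the 5 angiotensin probe sets on each array, 1 panel per probe set, with P3 arrays in blue and adult arrays in orange. Black bars show the background level of each array and dotted lines the geometric mean of a stage. Agtr2 lies above the bars on the 3 P3 arrays, at 67.7 to 96.4, and below them on the 3 adult arrays, at 0.372 to 1.16, whereas Agt lies below the bar only on P3 replicate 1.

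Agtr1a, the AT1 receptor, was measured by 1436739_at and was weak at both stages. Its signal at P3 was 50.2, 13.2 and 28.6 on replicates 1, 2 and 3, with a mean of 30.7 ± 18.6 (SD, n = 3). In the adult it was 23.8, 10.2 and 13.0, with a mean of 15.7 ± 7.16 (SD, n = 3). The stages overlapped, since P3 replicate 2 was lower than adult replicate 1. Its log2 fold change was -0.86 (SE 0.64), and it was -0.41 without P3 replicate 1 and -1.37 without P3 replicate 2. Agtr1a was above background on all 6 arrays, but only by ratios of 1.45, 1.44 and 4.54 on the P3 arrays and of 1.46, 1.13 and 1.49 on the adult arrays. On this scale P3 replicate 3 was the single array that stood clear of the others. In contrast to Agtr2, Agtr1a kept a middle rank at both stages, between percentiles of 45.1 and 62.4 at P3 and between 39.7 and 49.5 in the adult.

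Agt, which encodes the precursor angiotensinogen, was measured by 1423396_at and was brighter in the adult on average. At P3 the signal was 15.3, 86.2 and 78.1 on replicates 1, 2 and 3. In the adult it was 139, 97.2 and 113. The stages did not overlap, but P3 replicates 2 and 3 lay close below the lowest adult array, whereas P3 replicate 1 was the only array on which Agt was not above background. The mean signal was 59.8 ± 38.8 at P3 and 116 ± 20.9 in the adult (SD, n = 3). The log2 fold change was 1.30 (SE 0.62). It was 0.49 when P3 replicate 1, which had the high 3′ to 5′ ratio, was left out. With array quality weights it was 0.53. Agt was 9.41 and 12.4 times the background on P3 replicates 2 and 3 and 8.52, 10.7 and 13.0 times in the adult, so that these P3 and adult arrays overlapped on this scale. The part of RNA quality in the low value of P3 replicate 1 was not tested.

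Ace, the enzyme that forms angiotensin II, had 2 probe sets. The signal of 1451911_a_at was 55.4, 22.7 and 31.8 on P3 replicates 1, 2 and 3. In the adult it was 13.2, 7.52 and 21.7. The stages did not overlap, although adult replicate 3 came within 1 signal unit of P3 replicate 2. The mean signal was 36.6 ± 16.9 at P3 and 14.2 ± 7.13 in the adult (SD, n = 3). The log2 fold change was -1.40 (SE 0.59), and it was -0.47 with array quality weights and -0.83 with the mean background added. The probe set was above background on all 3 P3 arrays and on 1 adult array, replicate 3, where its ratio to background of 2.49 was close to that of P3 replicate 2, 2.47. The other probe set of Ace, 1427034_at, had signals of 5.08, 3.02 and 11.1 at P3 and of 29.1, 2.29 and 2.47 in the adult. It was above background on P3 replicate 3 and adult replicate 1 alone and was left out of the fit. The probe sets of Ace thus did not order the arrays alike, since adult replicate 1 was the brightest array for 1427034_at and the second lowest for 1451911_a_at.

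**Figure D2:**
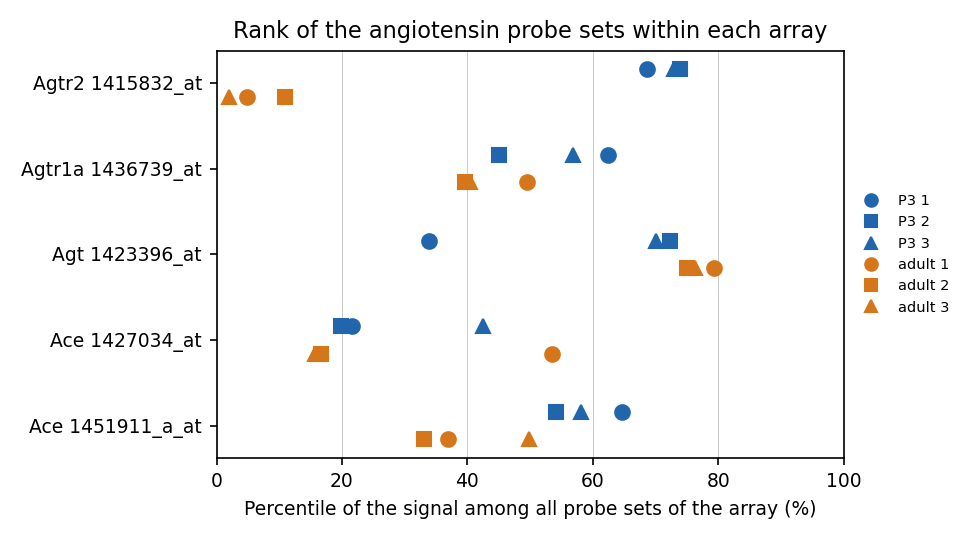
Percentile of the signal of each angiotensin probe set among all probe sets of the same array (horizontal axis, %), with P3 arrays in blue, adult arrays in orange and a marker shape for each replicate number. Agtr2 stood between 68.6 and 74.0 at P3 and between 1.94 and 10.9 in the adult, while Agt on P3 replicate 1, at 33.9, lay apart from the 70.0 to 79.3 of the other arrays.

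Side by side, the log2 fold changes of the 4 genes were -6.90 for Agtr2, -1.40 for Ace, -0.86 for Agtr1a and 1.30 for Agt. Of the 4 probe sets, 3 had stages that did not overlap, and so had 31.1% of all probe sets fitted, or 36.2% of genes by their brightest probe set. Nothing is read from that count, since the genes were chosen with this contrast known. A limma call, as defined below for other genes, was made for 7.26% of all probe sets, 3.87% higher at P3 and 3.39% in the adult. A log2 fold change below that of Ace was found for 5.69% of the probe sets, below that of Agtr1a for 13.3% and below that of Agt for 89.6%. Within a stage, the SD of the log2 signal of Agtr2 was 0.29 at P3 and 0.85 in the adult, where all signals were below background. For Agt it was 1.40 at P3 and 0.26 in the adult, for Agtr1a 0.97 and 0.63, and for Ace 0.65 and 0.76. The smallest of these values were those of Agt in the adult and of Agtr2 at P3.

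**Figure D3:**
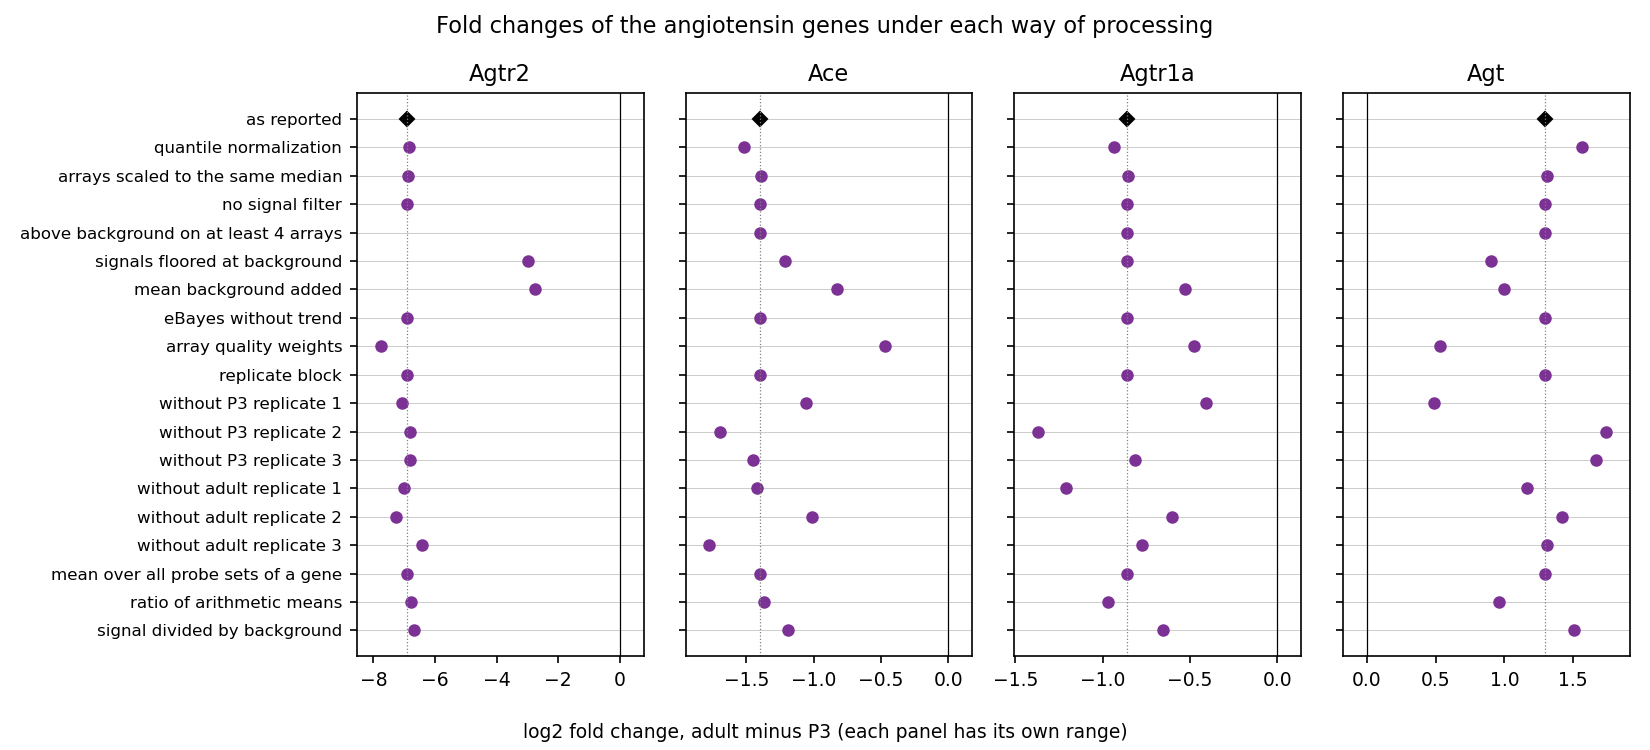
Horizontal axis: log2 fold change, adult minus P3, of the 4 genes under each way of processing, 1 panel per gene with its own range, with a black diamond for the value as reported. No point crosses 0, while Agtr2 moves from -6.90 to -2.97 and -2.75 where low signals are floored or raised, and Agt to 0.49 without P3 replicate 1.

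Other genes of the pathway were taken from 4 lists with 49 genes. Of these, 5 were not analysed here, 8 were not above background on at least 3 arrays, and 36 were tested with limma. Calls required a fold of at least 2 and a p under 0.05 after Benjamini-Hochberg adjustment over all probe sets. Of the 36, 2 were called with the higher level at P3 and 7 with the higher level in the adult, at a median log2 fold change of 0.19. Over all 13743 genes tested, 5.49% were called higher at P3 and 4.53% in the adult, 10.0% in all, and the median was -0.04. The lists were chosen with earlier results of these data known, and Ctsg, counted here, passed the signal filter through its adult arrays alone. Nothing is therefore read from the difference between these counts and the share over all genes. The number higher in the adult was 4 when P3 replicate 2 or 3 was left out, and 3 when adult replicate 2 or 3 was. The number higher at P3 was 1 without P3 replicate 2 or adult replicate 2 or 3, and 3 without P3 replicate 1.

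Of 12 enzymes that form or degrade angiotensin peptides, 1 was higher at P3 and 1 in the adult, and the median log2 fold change was -0.12. Mme, which encodes neprilysin, a membrane peptidase that cleaves angiotensin I, had signals of 1336, 1453 and 995 at P3. In the adult its signals were 589, 490 and 535, below all P3 arrays. Mme fell by 1.22 on the log2 scale (moderated SE 0.23 and limma adjusted p = 0.0180), and the adjusted p was 0.0854 without P3 replicate 2, 0.0541 without adult replicate 2 and 0.0972 without adult replicate 3. It was 0.0716 without the intensity trend in the variance. A second probe set of Mme gave a log2 fold change of -0.72 (limma adjusted p = 0.599) and its stages overlapped. Ctsg, a serine protease of neutrophil granules, had signals of 2.00, 0.486 and 2.76 at P3, none above background, and of 42.7, 136 and 24.2 in the adult. Ctsg passed the signal filter through its 3 adult arrays alone, so the p given here is no separate support. Under a stricter filter of at least 4 arrays it was not fitted. The adult level of Ctsg was at least 4.14-fold higher, and the fitted log2 fold change was 5.23 (moderated SE 1.00 and limma adjusted p = 0.0182). It was 4.47 without P3 replicate 2, 4.53 without adult replicate 2 and 2.05 with signals floored at background (limma adjusted p = 0.127), and the adjusted p was 0.0591, 0.0889 and 0.0612 without adult replicates 1, 2 and 3. Of 7 macrophage and monocyte markers above background, none was higher at P3 and 2 in the adult, Lyz2, the lysozyme of myeloid cells, and Ptprc, the surface protein CD45 of blood cells, and their summed signal was 986 to 1682 at P3 and 2030 to 3543 in the adult. Their median log2 fold change was 0.01, and without Lyz2 the summed signals overlapped, at 826 to 1542 and 963 to 1292. Lyz2 rose by 3.16 on the log2 scale (moderated SE 0.33 and limma adjusted p = 0.00186). The part of blood cells in the Ctsg signal was not tested.

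Enpep, the aminopeptidase A that turns angiotensin II into angiotensin III, was bright at both stages. Its signals were 2077, 1444 and 1591 at P3 and 1221, 3749 and 4096 in the adult, so that adult replicate 1 was below all P3 arrays and adult replicates 2 and 3 were above them. This gave a log2 fold change of 0.66 (moderated SE 0.46 and limma adjusted p = 0.431). With array quality weights it was 1.29 (limma adjusted p = 0.0024). Anpep, the aminopeptidase N that acts on angiotensin III, varied from 5.08 to 101 at P3 and from 12.5 to 45.0 in the adult, and its log2 fold change was 0.21 (moderated SE 1.02 and limma adjusted p = 0.927), or 1.65 with array quality weights (limma adjusted p = 0.0475). Mast cell enzymes that can act on angiotensin peptides were near or below background. Cma1 and Mcpt4, both chymases, were above background on 0 of 6 arrays and Cpa3, a carboxypeptidase, on 1.

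Among the other receptors and the proteins that bind them, Agtr1b, the second AT1 receptor of rodents, and Mas1, a receptor of the shorter peptide angiotensin-(1-7), were above background on 0 of 6 arrays. Their signals reached at most 10.6 for Agtr1b and 17.7 for Mas1. Of 4 genes tested in this list, 1 was higher in the adult. This was Zbtb16, a transcription factor that binds the tail of the AT2 receptor. Its signals were 13.1, 40.3 and 53.3 at P3 and 444, 228 and 240 in the adult. The log2 fold change was 3.25 (moderated SE 0.53 and limma adjusted p = 0.00996), or 2.64 without P3 replicate 1, and 2.14 as the mean over its 3 probe sets. Mtus1, an AT2 receptor-interacting protein, had signals of 69.5, 224 and 213 at P3 and of 318, 358 and 276 in the adult. The stages did not overlap, but the log2 fold change of 1.08 (SE 0.43) did not pass the test (limma adjusted p = 0.173), and it was 0.53 without P3 replicate 1. Atp6ap2, known as the prorenin receptor, had signals of 1936, 1802 and 1623 at P3 and of 3700, 2994 and 3146 in the adult. The stages did not overlap, at a log2 fold change of 0.87 (moderated SE 0.24 and limma adjusted p = 0.0677). Its other 2 probe sets gave 0.72 and 0.81, also without passing the test. Agtrap, which binds the AT1 receptor, had a log2 fold change of 0.50 (moderated SE 0.26 and limma adjusted p = 0.285).

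Of 13 signal transducers that AT1 or AT2 receptors use along with many other receptors, none was called higher at P3 and 2 were called higher in the adult, at a median log2 fold change of -0.04. Dusp1, a phosphatase that switches off MAP kinases, had signals of 59.4, 67.1 and 97.1 at P3. In the adult they were 564, 1019 and 936. Dusp1 rose by 3.48 on the log2 scale (moderated SE 0.30 and limma adjusted p = 0.0010). Arrb1, the beta-arrestin that uncouples receptors from G proteins, rose by 1.52 (moderated SE 0.36 and limma adjusted p = 0.0410), from 68.7 ± 28.2 to 186 ± 31.6 (SD, n = 3). The Arrb1 call was lost without any 1 array other than P3 replicate 1, at an adjusted p of 0.0844 and 0.0512 without P3 replicates 2 and 3 and of 0.0911, 0.0715 and 0.182 without adult replicates 1, 2 and 3. In these fits its log2 fold change was 1.39 to 1.79. After quantile normalization it was 1.68 (limma adjusted p = 0.0603).

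Aldosterone, which angiotensin II releases from the adrenal gland, acts through the mineralocorticoid receptor, and kinins are further substrates of angiotensin-converting enzyme. Of 7 genes of this list that were tested, 1 was higher at P3 and 3 in the adult, with a median log2 fold change of 1.14. Nr3c2, the mineralocorticoid receptor, had signals of 70.8, 56.6 and 56.6 at P3 and of 207, 180 and 160 in the adult. Nr3c2 rose by 1.57 on the log2 scale (moderated SE 0.25 and limma adjusted p = 0.00927). Hsd11b2, the enzyme that inactivates glucocorticoids and so leaves that receptor to aldosterone, had signals of 168, 77.5 and 70.7 at P3 and of 1.88, 8.98 and 12.3 in the adult, where 1 array was above background. Hsd11b2 fell by 4.04 on the log2 scale (moderated SE 0.76 and limma adjusted p = 0.0171). Its log2 fold change was -3.21 without adult replicate 1 and -2.99 with signals floored at background. Hsd11b1, which was not called, had signals of 185, 87.0 and 57.6 at P3 and of 194, 828 and 723 in the adult. The stages did not overlap, at a log2 fold change of 2.32 (moderated SE 0.60 and limma adjusted p = 0.0522). Scnn1a, the alpha subunit of the epithelial sodium channel, had signals of 3.45, 9.24 and 9.69 at P3 and of 40.5, 34.6 and 53.1 in the adult. It rose by 2.64 (moderated SE 0.61 and limma adjusted p = 0.0351), or by 1.53 with signals floored at background (limma adjusted p = 0.134). Sgk1, a kinase that aldosterone induces, went from 1063 ± 105 to 2374 ± 471 (SD, n = 3) and rose by 1.14 (moderated SE 0.25 and limma adjusted p = 0.0292).

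The calls of Scnn1a and Sgk1 were lost with several single arrays left out, at log2 fold changes of 2.47 to 2.90 for Scnn1a and of 1.00 to 1.22 for Sgk1. The adjusted p of Scnn1a was 0.0758 and 0.0707 without P3 replicates 2 and 3 and 0.0962, 0.0777 and 0.186 without adult replicates 1, 2 and 3, and 0.0699 after quantile normalization. That of Sgk1 was 0.0917 and 0.104 without P3 replicates 2 and 3 and 0.0755 and 0.134 without adult replicates 2 and 3. The kinin receptors Bdkrb1 and Bdkrb2 were above background on 0 of 6 arrays at each of their probe sets.

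**Figure D4:**
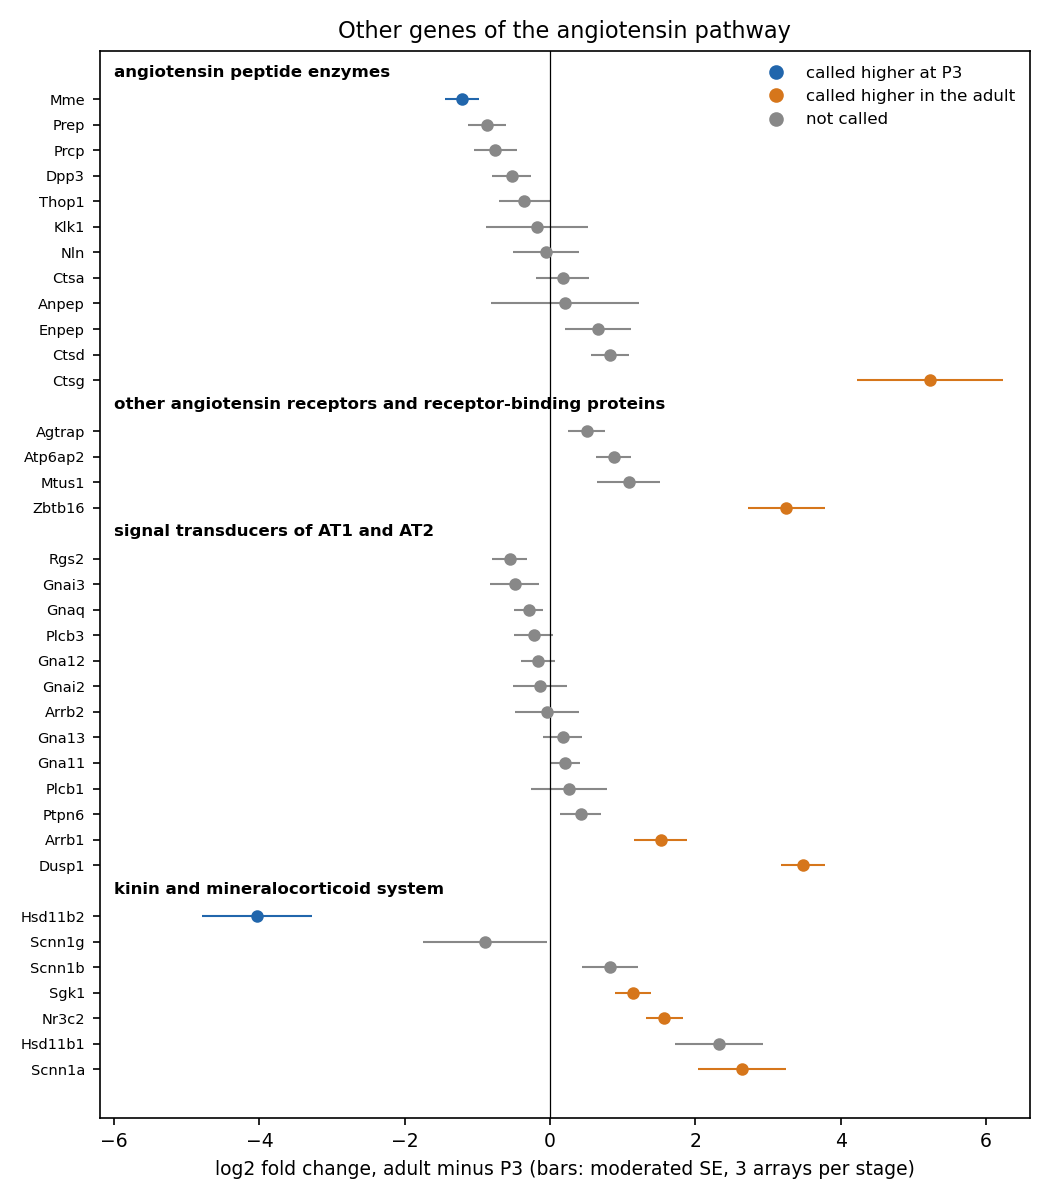
Difference in log2 signal between the stages (adult minus P3, horizontal axis) for the 36 other genes tested, by list, with bars for the moderated SE of 3 arrays per stage. Blue points were called higher at P3 (2 genes), orange points higher in the adult (7 genes) and grey points were not called.

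Markers of cell types that can carry angiotensin genes were measured beside them. Of 68 markers tested over all lists, 6 were called higher at P3 and 6 in the adult, 17.6% in all. Over all genes tested, 5.49% were called higher at P3 and 4.53% in the adult, 10.0% in all. The marker lists too were chosen with earlier results of these data known, so nothing is read from this difference. Of 12 markers of endothelial cells, in which Ace is best known, none was higher at P3 and 1 in the adult, Vwf. Their median log2 fold change was -0.44, with 7 of the 12 below 0, and the summed signal was 1250 to 1986 at P3 and 1118 to 1695 in the adult. Vwf, a clotting factor of the vessel wall, was above background on 1 of 3 P3 arrays. It rose by 3.44 on the log2 scale (moderated SE 0.61 and limma adjusted p = 0.0140), with an adjusted p of 0.0570, 0.0562 and 0.0669 without adult replicates 1, 2 and 3. With a floor at background its log2 fold change was 2.11, and 1.88 with the mean background added. Of 10 markers of pericytes and smooth muscle cells, in which AT1 receptors are common, none was called in either direction, and their summed signal was 2014 to 2686 at P3 and 2773 to 3640 in the adult. Their median log2 fold change was 0.55, with 4 of the 10 below 0. Rgs5, the brightest on average, made up a large part of the summed signal. Its signals were 780 to 1228 at P3 and 1235 to 2033 in the adult. The stages of Pdgfrb, the next brightest, overlapped, at a log2 fold change of -0.14. Of 12 markers of fibroblasts and mesenchyme, tissues in which fetal AT2 receptors are known, 2 (Col3a1 and Postn) were called higher at P3 and 0 in the adult. Their summed signal was 22423.5 to 49533.5 at P3 and 11240.7 to 12995.9 in the adult. Their median log2 fold change was -1.22, with all 12 below 0 and all 12 above background on all 6 arrays. The highest of these sums was that of P3 replicate 1, the array with the high 3′ to 5′ ratio. Of 8 markers of astrocytes, which make angiotensinogen in the brain, none was called higher at P3, while S100b and Aldh1l1 were higher in the adult. The other 6 were not called. Slc1a3 is in this list and in that of supporting cells, so these markers are not all particular to astrocytes. The median log2 fold change of the 8 was 0.48, with 1 below 0. Gfap, by the brighter of its 2 kept probe sets, had a signal of 250.8 on adult replicate 1 and of 14.6 or less on every other array. The paper lists another Gfap probe set among its genes higher in the adult. Aqp4 (919, against 177 and 164 on adult replicates 2 and 3) and Gja1 (1313, against 372 and 245) were also brightest on adult replicate 1. So were Aldh1l1, Slc1a3 and Ndrg2, at 99.0, 643 and 659, and so was Agt itself, at 139. S100b was brightest on adult replicate 3 and Slc1a2 on P3 replicate 3. Of 12 supporting cell markers, 4 (Tecta, Sox2, Jag1 and Otog) were called higher at P3 while 1, Gjb6, was higher in the adult, with summed signals of 8630 to 11233 and 7759 to 12439. The part of these cell types in the levels of the angiotensin genes was not tested.

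The genes with the pattern most like that of a member were found by Pearson's r of log2 signals over the 6 arrays. Agtr2 was closest to Adamts9, an extracellular metalloprotease (r = 0.999), to Car9, a carbonic anhydrase (r = 0.999), and to Pard6b, a cell polarity protein (r = 0.998). These values include the adult signals of Agtr2, all below background, so the order of its closest genes cannot be read. The signal of Adamts9 was 268 to 339 at P3 and 23.8 to 38.4 in the adult. Agt was closest to Sik3, a salt-inducible kinase, Dnajc28, a chaperone family member, and Bbs4, a protein of the BBSome (r = 0.9996, 0.9994 and 0.9994), all of which were lowest on P3 replicate 1. Agtr1a was closest to Zfp729a, Obsl1 and Snapc2 (r = 0.997, 0.989 and 0.988), and Ace to Reep3, Msl1 and Ints4 (r = 0.997, 0.995 and 0.994). All of these, like Agtr1a and the fitted probe set of Ace, were brightest on P3 replicate 1, the array of highest background. With only 6 arrays such values are common, whether they follow the 2 stages or a single array. A value of r over 0.9 was found for 1313 genes against Agtr2, 1653 against Agt, 319 against Agtr1a and 442 against Ace.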

How the data were processed

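RNA from pooled CSE was measured on 6 Affymetrix Mouse Genome arrays, 3 independent dissections at P3 and 3 in the adult. The deposited values are linear MAS5.0 intensities, which the authors computed with Affymetrix software (GCOS 1.2 per the labels, another version in the methods). On every array their mean after trimming 2% at each end was 100.0, so no further normalization was made. All 6 columns matched a stage and replicate by label. By the array annotation, 34945 probe sets name 1 gene, 932 several and 9160 none, and 64 are controls. A probe set was kept when it exceeded background on 3 or more of the 6 arrays, and the kept probe set with the highest mean log2 signal stood for a listed gene. For the test, log2 signals were fitted by stage alone in limma 3.58.1 (R 4.3.3) with lmFit and an eBayes intensity trend, adjusted over all 29036 kept probe sets. A fold is given as at least a value where one stage exceeded background on 0 arrays, with its signals raised to background. SAM, the test of the methods, was not run, and detection calls were not used. The members and lists were chosen with earlier results of these data known. Named are all members, each called pathway gene, listed genes that act directly on angiotensin peptides or receptors, up to 4 bright and 3 called markers per list, and the 3 genes of highest correlation with each member. Cma1, Mcpt4, Cpa3, Bdkrb1, Hsd11b1, Slc26a5, Gfap, Aqp4 and Slc1a2 were named after their values were seen. Alternatives changed the normalization, the signal filter, the handling of low signals, the variance model, the pairing, single arrays, the kind of mean and the choice of probe set. Division of signals by background and the macrophage sum without Lyz2 were added after seeing the data.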

Additional observations from a re-analysis of the deposited data

How the results depend on the processing

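The log2 fold changes of Agtr2, Agtr1a, Agt and Ace kept their sign in every alternative run, 17 for Agtr2 and 18 for each of the others. Agtr2 could not be fitted under the filter of at least 4 arrays, because it was above background on 3. With any 1 array left out the values ran from -7.25 to -6.43 for Agtr2, from -1.37 to -0.41 for Agtr1a, from 0.49 to 1.74 for Agt and from -1.78 to -1.01 for Ace. Agtr2 moved by more than the spread between replicates to -7.77 with array quality weights, -2.97 with a floor at background and -2.75 with the mean background added, and Ace to -0.47 with the weights.

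The pathway counts of 2 higher at P3 and 7 in the adult became 0 and 5 without the intensity trend, 3 and 11 with array quality weights and 1 and 8 when the probe sets of a gene were averaged. Under the filter of at least 4 arrays they were 2 and 6, with Ctsg not fitted. With any 1 array left out they ran from 1 to 3 and from 3 to 8. The marker counts of 6 and 6, out of 68 tested, became 13 and 11 with array quality weights. They ran from 5 to 10 and from 3 to 8 with any 1 array left out. Of the 9 pathway genes called, Dusp1, Nr3c2 and Zbtb16 were called in all 17 settings, and without the intensity trend the adjusted p was 0.101 for Arrb1, 0.0816 for Sgk1 and 0.0509 for Hsd11b2. The direction of Anpep, not called, turned to -0.077 with a floor at background, to -0.054 with the mean background added, to -0.89 without P3 replicate 2 and to -0.17 without adult replicate 1, and reached 1.27 without P3 replicate 1.

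With the replicate number as a block the pathway counts stayed at 2 and 7, and the marker counts were 9 and 6. The numbers were not taken to pair the arrays, since the deviations of same-numbered arrays from their stage means correlated at 0.182, 0.213 and 0.076 for numbers 1, 2 and 3, not all over 0.1, although each array correlated best with its own number.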
